A study of Mus musculus with 34 samples.

Results

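Cxcl13, Ccl19, Ccl21a and Cxcl12 encode the homeostatic chemokines of lymphoid stroma, the secreted proteins that place lymphocytes in tissue without any inflammatory stimulus. The 4 genes were chosen by name, and they are 4 of the 51826 gene identifiers counted in each library. All 4 passed the filter on low counts, which left 25705 genes for testing. Their transcripts were followed through 34 RNA sequencing libraries of sorted mouse stromal cells in 12 groups.

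CXCL13 binds CXCR5 and draws B cells into follicles. CCL19 and CCL21 both bind CCR7 and draw T cells and dendritic cells into the T cell zones of lymph node and spleen. CXCL12 binds CXCR4, is made by many fibroblasts, and holds blood progenitors and plasma cells in the marrow. In lymphoid stroma the first 3 are known targets of the lymphotoxin beta receptor, which signals through the kinase NIK (Map3k14) to the NF-kB subunits RelB and p52. Atypical receptors such as ACKR3 and ACKR4 bind and remove these chemokines without calling cells in. The omentum, a fatty fold in the abdomen, carries small lymphoid clusters known as milky spots, where CXCL13 is known to gather B cells.

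The study asked how tissue environment shapes stromal transcription. Podoplanin-positive cells without CD45, CD31 or Epcam were sorted from digested tissue, and PDGFRA divided these into fibroblasts (positive) and mesothelial cells (negative), the lining cells of the body cavities. Lymph node, bone, omentum, mesentery and the epididymal, inguinal and brown fat depots each gave 3 fibroblast libraries, and pancreas and spleen 2 each. The lymph node samples are labelled sLN, and which nodes were taken is not given in the sources used here. Mesothelial cells came from omentum, mesentery and epididymal fat with 3 libraries each. All 12 groups are labelled GFP-negative, and what GFP would report is not given in the sources used here. Strain, age, sex, treatment and the number of animals behind a library are not given there either, so p-values measure the spread between these libraries, which may be technical. Each library is bulk RNA of a mixed sort, in which fewer cells of a type and less RNA per cell cannot be told apart.

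Totals ran from 28651435 to 42335589 reads per library. Levels below are in CPM, the read count scaled to a common library total after TMM, and levels of different genes are compared only per kilobase of exon. The sorted cell types carried their markers: Pdgfra averaged 394 to 1194 CPM in the fibroblast groups and 6.61 to 11.7 CPM in the mesothelial groups, and the sum of 7 mesothelial markers was 6638 to 10656 CPM in mesothelial libraries. Omentum fibroblasts also carried 464 to 665 CPM of these mesothelial markers, against at most 240 CPM in any other fibroblast library. Pancreas libraries stood apart by 12942 to 64740 CPM of 6 acinar cell transcripts, and these transcripts reached 2159 CPM in mesentery mesothelial cells. A gene was called at an edgeR adjusted p under 0.05 with a log2 fold change of at least 1 in size. Each comparison of a tissue with the other 8 fibroblast groups is with the unweighted mean of their effects, not with each group.

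Reads of Ccl21a cannot be placed with certainty, because the mouse genome holds near-identical copies of it. Ccl21a (ENSMUSG00000094686) lies at chr4:42772860-42773993 on the minus strand in GRCm38. Genes Ccl21b, Gm10591, Gm13304 and Gm21541 on the same chromosome match its transcript at 99.3 to 99.5% identity. Across the 402 coding bases, all 4 copies differ from Ccl21a at the same pair of positions, T84A and C194T, counted from the first coding base. The coding stretches around them are shown because these bases are all that separates the coding reads of Ccl21a from those of its copies, with the differing base in capitals.
Ccl21a, coding bases 64 to 104: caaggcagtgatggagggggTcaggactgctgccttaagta
Gm21541, coding bases 64 to 104: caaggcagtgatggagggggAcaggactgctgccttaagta
Ccl21a, coding bases 174 to 214: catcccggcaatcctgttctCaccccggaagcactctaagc
Gm21541, coding bases 174 to 214: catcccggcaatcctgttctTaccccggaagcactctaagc
Gm21541, at chr4:41903610-41904743 on the plus strand and named Ccl21d in RefSeq, drew 87261 reads over all libraries, which is 3.36% of the number given to Ccl21a. Gm13304 drew 92 reads, and Ccl21b and Gm10591 drew 11 each. Over the whole transcript, Gm21541 differs from Ccl21a at 6 of 870 bases and Gm13304 at 5 of 837, while the models of Ccl21b and Gm10591 hold only the 402 coding bases. A read that covers none of these differences fits Ccl21a and at least 1 copy, so each Ccl21a value here is the count that the authors' processing gave to that locus. Gm21541 had 0.0192 to 0.0431 reads per Ccl21a read in lymph node and spleen libraries, and from 0 to 7.0 in the other 20 fibroblast libraries, where Ccl21a was low. Summing the copies with Ccl21a before the fit changed none of its 24 calls.

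The lymph node was the high point of 3 of the 4 genes. Ccl21a, Ccl19 and Cxcl12 were each highest in lymph node fibroblasts with no overlap with any other group, while Cxcl13 was highest in omentum fibroblasts. In lymph node fibroblasts all 4 genes were called higher than the mean of the other 8 fibroblast groups, where 9.32% of all genes tested were called higher and 16.4% were called in either direction. The members' median log2 fold change there was 6.65, beside a median of -0.04 over all genes. The 4 genes together took 3.53 to 5.03% of all reads in the lymph node libraries. In spleen they took 0.349 to 0.373%, and in omentum fibroblasts 0.347 to 0.469%.

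**Figure D1:**
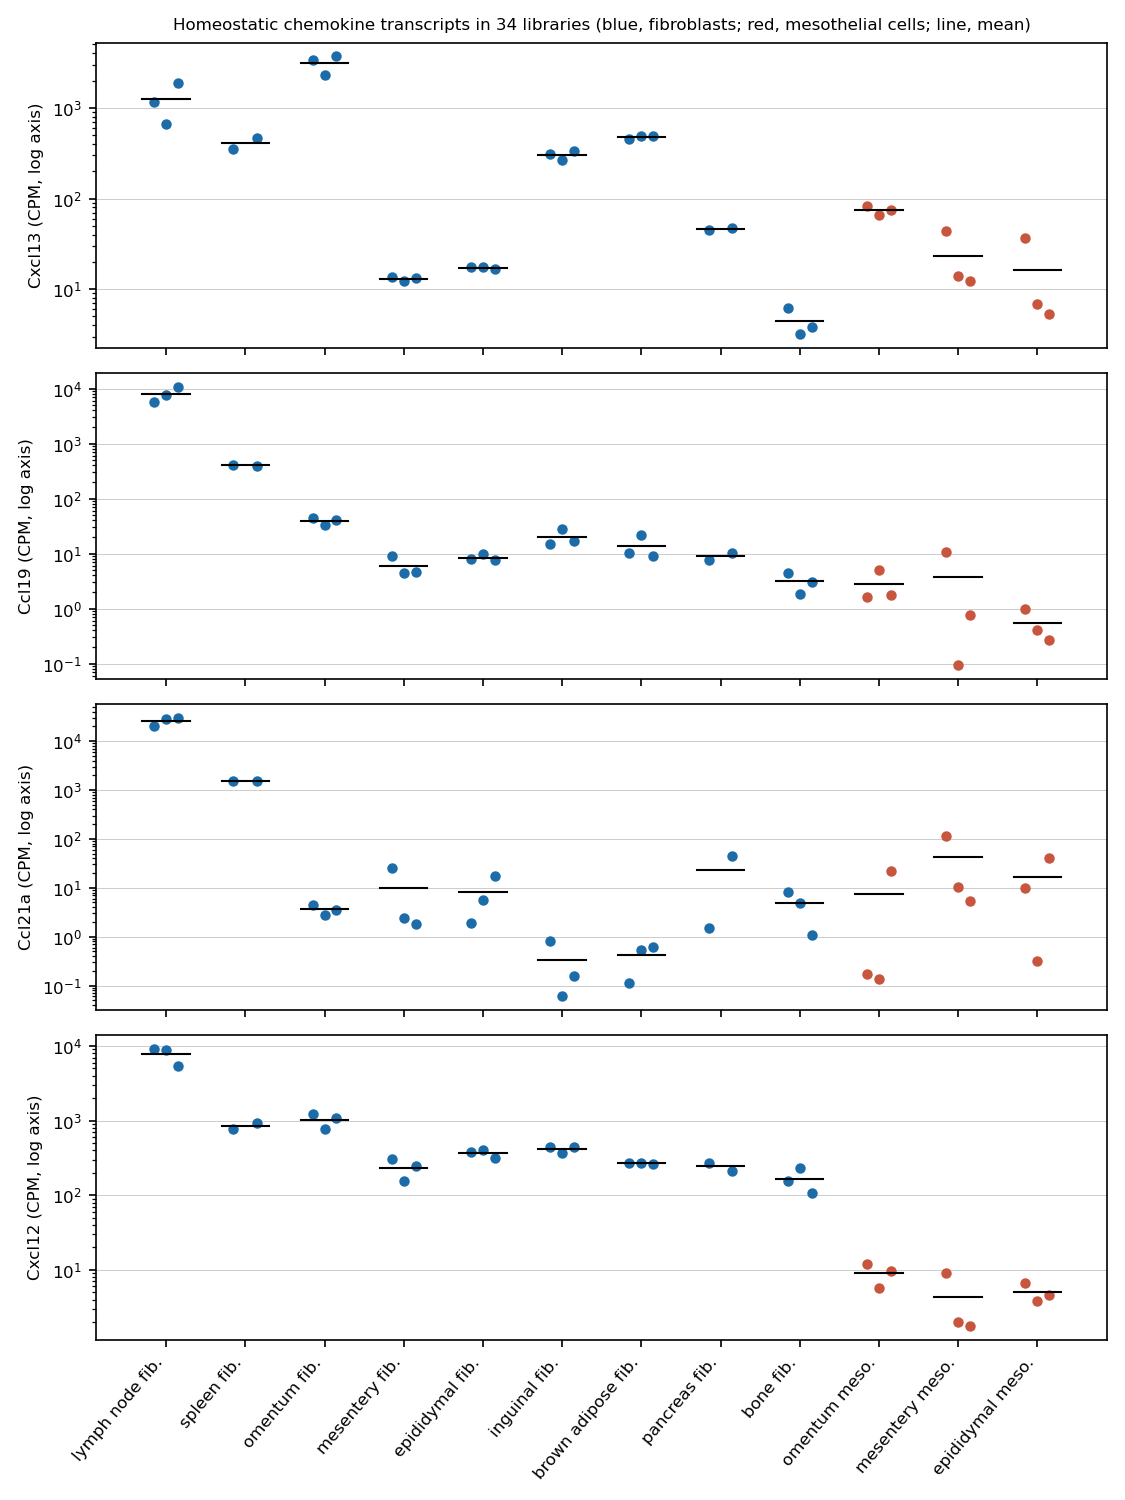
Each point is a library and each line a group mean; the y axes give CPM on a log scale for the 4 genes, with fibroblasts in blue and mesothelial cells in red. Lymph node fibroblasts are at the top for Ccl19, Ccl21a and Cxcl12, omentum fibroblasts for Cxcl13, and the mesothelial libraries lie below every fibroblast library for Cxcl12.

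Ccl21a was the most abundant transcript per kilobase in all 3 lymph node libraries. Its levels there were 19986, 28176 and 29769 CPM, or 1.95 to 3.12% of all reads. The spleen libraries held 1550 and 1538 CPM, and the highest library of the other 10 groups 115 CPM. Lymph node and spleen thus stood clear of all other libraries, and of each other. Against the mean of the other 8 fibroblast groups the log2 fold change was 11.80 ± 0.95 (SE; edgeR adjusted p = 5.32e-10) for lymph node and 7.22 ± 0.86 (edgeR adjusted p = 3.5e-06) for spleen. The difference of 4.07 ± 1.79 between lymph node and spleen was not called (edgeR adjusted p = 0.134), although the libraries of the 2 groups do not overlap. It was called by DESeq2 (adjusted p = 0.0224) and by edgeR fitted on those 5 libraries alone (adjusted p = 6.38e-06).

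Outside lymph node and spleen, Ccl21a was low, and in some groups it was uneven. Mesentery mesothelial libraries held 115, 10.4 and 5.35 CPM, the pancreas libraries 1.52 and 44.8 CPM, and omentum mesothelial libraries 0.176, 0.138 and 22.4 CPM. Libraries within each of these 3 groups thus differed by more than 10-fold, while omentum fibroblasts were even at 4.43, 2.78 and 3.57 CPM. Inguinal and brown adipose fibroblasts were lowest, at 0.340 ± 0.405 and 0.422 ± 0.268 CPM (SD, n = 3 each). Each was called lower than the mean of the other 8 fibroblast groups, at -6.38 ± 1.90 and -6.08 ± 1.84 on the log2 scale (edgeR adjusted p = 0.0315 and 0.0349). The inguinal call was lost without any 1 of its 3 libraries (-8.04 to -5.91), and the brown adipose call in 4 of 34 fits that each left out a library (-6.44 to -5.64). The other 5 tissues were not called for Ccl21a.

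Lymphatic endothelium is another known source of CCL21, and although the sort against CD31 would remove it, its other markers are given beside these values. The sum of 5 of them (Prox1, Lyve1, Flt4, Mmrn1 and Reln) was 42.2 CPM in the mesentery mesothelial library with 115 CPM of Ccl21a, and 10.5 and 11.8 CPM in the other 2. In the pancreas library with 44.8 CPM of Ccl21a the sum was 27.2 CPM, against 1.62 CPM in the other pancreas library. In 7 of the 10 groups outside lymph node and spleen, the library highest in Ccl21a was also the highest in this sum. With 2 or 3 libraries per group such matches are frequent by chance, and the inguinal match rested on 28, 2 and 5 reads of Ccl21a. Bone, brown adipose and omentum fibroblasts had no such match. The bone libraries had sums of 10.5 to 19.4 CPM with 1.11 to 8.26 CPM of Ccl21a. The lymph node libraries, with the most Ccl21a, had sums of only 2.20 to 5.65 CPM, and the spleen libraries 4.63 and 4.65 CPM. Mmrn1 averaged 12.8 CPM in mesentery mesothelial cells and 1.95 CPM in lymph node fibroblasts, and none of the 5 markers was at 0 in every library of any group. The part of these transcripts in the low Ccl21a values was not tested.

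**Figure D2:**
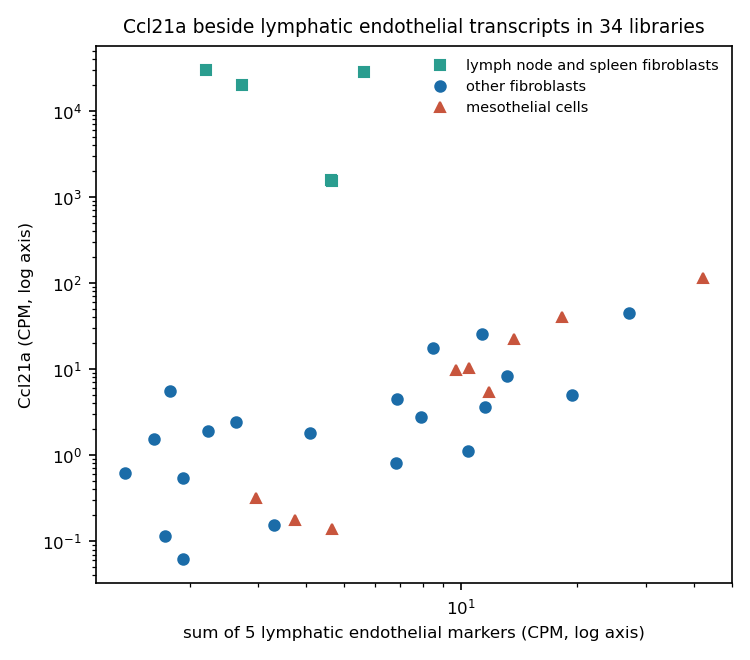
Each point is a library; the x axis gives the summed CPM of Prox1, Lyve1, Flt4, Mmrn1 and Reln and the y axis Ccl21a in CPM, both on log scales. The lymph node and spleen libraries sit at the top at sums of 2.20 to 5.65 CPM, and the other libraries with over 20 CPM of Ccl21a have sums of 11.4 CPM or more.

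Ccl19 followed the same order at its top end. It lies at chr4:42754525-42756577 on the minus strand (ENSMUSG00000071005), close to Ccl21a. Lymph node libraries held 5798, 7607 and 10583 CPM, which placed Ccl19 second per kilobase in each of them. Spleen held 407 and 395 CPM, and omentum fibroblasts 44.2, 32.7 and 40.7 CPM. Each of these 3 groups was apart from the next. The log2 fold change against the other 8 fibroblast groups was 8.90 ± 0.40 in lymph node (edgeR adjusted p = 6.36e-15) and 4.04 ± 0.41 in spleen (edgeR adjusted p = 2.62e-07). Lymph node exceeded spleen by 4.32 ± 0.86 (edgeR adjusted p = 0.00074). Ccl21a had 2.81 to 3.70 reads per Ccl19 read in lymph node and 3.81 to 3.90 in spleen. In omentum fibroblasts the ratio was 0.0850 to 0.100.

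Below the omentum, Ccl19 ran at single-digit or low double-digit levels. Inguinal fibroblasts averaged 19.9 CPM, brown adipose 13.8, pancreas 8.98, epididymal 8.40, mesentery 6.04 and bone 3.13 CPM, and each of these groups overlapped the next. Against the other 8 groups, bone (-3.83 ± 0.69, edgeR adjusted p = 9.66e-05), mesentery (-2.76 ± 0.62, adjusted p = 0.00614), epididymal (-2.23 ± 0.60, adjusted p = 0.0186) and pancreas (-2.13 ± 0.71, adjusted p = 0.046) were called lower. The pancreas call was lost in 23 of 34 fits that each left out a library. The epididymal call was lost without any 1 of its 3 libraries (-2.35 to -2.15), and the mesentery call without mesentery library 2 or 3 (-2.60 and -2.58). Omentum fibroblasts were not called against the mean of all 8 (0.27 ± 0.48), but exceeded mesentery fibroblasts by 2.69 ± 0.70 (edgeR adjusted p = 0.0124).

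Ccl19 also has copies, and the reads were split between it and them unevenly across tissues. Gm2564 (ENSMUSG00000091938), at chr4:42629719-42631714 on the plus strand, matches the Ccl19 transcript at 98.9% over 707 bases. It drew 365952 reads in all, 46.2% of the number given to Ccl19. The pseudogenes Ccl19-ps1 and Gm12407 drew 9549 and 2962 reads, and Ccl19-ps3 drew 1. In lymph node and spleen fibroblasts Gm2564 had 0.339 to 0.498 reads per Ccl19 read. In all 20 fibroblast libraries of the other 7 tissues it had more reads than Ccl19, with a ratio of 1.81 to 6.30 and a median of 3.98. The 2 sets of fibroblast libraries thus did not overlap in this ratio. Mesothelial libraries ran from 0.126 to 3.33, on counts of at most 446 for Ccl19.

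Because of this split, the values of Gm2564 are given beside those of Ccl19. Bone, mesentery, epididymal and pancreas fibroblasts were called lower for both genes. For Gm2564 alone the lymph node stood 6.14 ± 0.26 above the other 8 fibroblast groups (edgeR adjusted p = 2.45e-16) and spleen 1.29 ± 0.36 (adjusted p = 0.0333), beside 8.90 and 4.04 for Ccl19; the difference between the 2 genes was not tested. With Ccl19 and its copies summed, lymph node held 11434 ± 2768 CPM (SD, n = 3), spleen 557 and 592 CPM, and omentum fibroblasts 168 ± 12.8 CPM (n = 3). The order of these 3 groups was the same as for Ccl19 alone. Whether transcription or the assignment of reads sets the ratio was not tested.

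**Figure D3:**
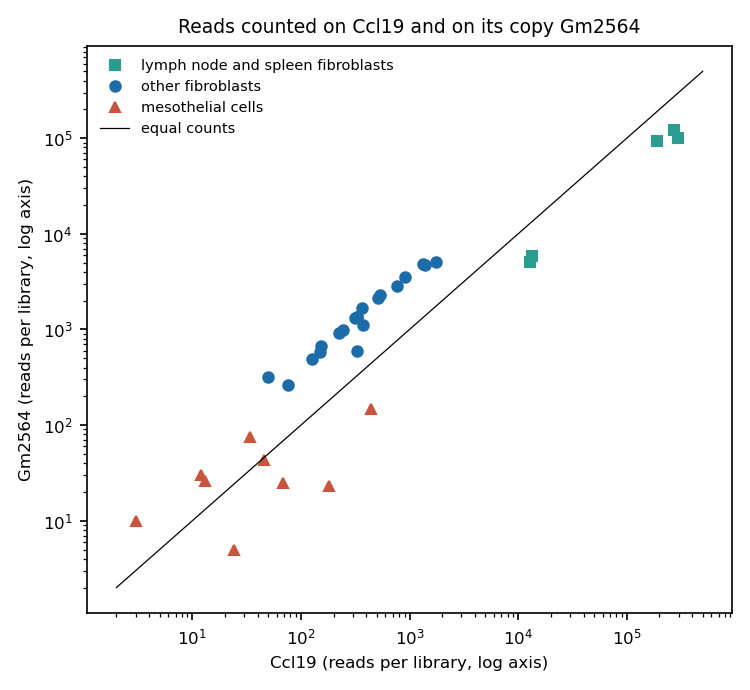
Each point is a library; the axes give reads on Ccl19 (x) and on its copy Gm2564 (y) on log scales, with a line of equal counts. Lymph node and spleen fibroblasts lie below the line at ratios of 0.339 to 0.498, the other fibroblasts above it at 1.81 to 6.30, and mesothelial libraries on both sides.

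Cxcl13 had a different peak from the other 3 genes. It lies at chr5:95956951-95961068 on the plus strand (ENSMUSG00000023078). Omentum fibroblasts held 3414, 2330 and 3695 CPM, and lymph node fibroblasts 1164, 664 and 1899 CPM. The 2 groups do not overlap, and the difference of -1.34 ± 0.49 for lymph node minus omentum passed narrowly (edgeR adjusted p = 0.0485). It was lost in 25 of 34 fits that each left out a library, at values of -1.34 to -1.04. Against the other 8 fibroblast groups, omentum stood 5.17 ± 0.28 higher (edgeR adjusted p = 1.85e-13) and lymph node 3.66 ± 0.29 higher (edgeR adjusted p = 1.24e-10).

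Of the 4 genes, Cxcl13 and Cxcl12 were called higher in omentum fibroblasts, where 7.64% of all genes tested were called higher and 10% in either direction. Per kilobase, Cxcl13 made up 93.5 to 94.6% of the summed level of the 4 genes there. In lymph node its share was 1.35 to 3.39%, and Ccl21a took 70.2 to 75.6%. In spleen Ccl21a took 64.5 to 67.3% and Cxcl13 11.5 to 14.8%. The omentum thus carried the follicular B cell chemokine with little of the CCR7 ligands, and lymph node and spleen carried mostly the CCR7 ligands. These shares count Ccl19 without its copies. They may understate Cxcl12, whose 8176 bases of annotated exon need not all lie in 1 transcript.

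The next Cxcl13 levels were in fat outside the abdomen. Brown adipose fibroblasts held 457, 487 and 484 CPM and inguinal fibroblasts 312, 264 and 337 CPM, with the spleen libraries at 349 and 467 CPM overlapping brown adipose. All 3 groups were called higher than the mean of the other 8. The differences were 2.11 ± 0.31 for brown adipose (edgeR adjusted p = 2.6e-05), 1.86 ± 0.37 for spleen (adjusted p = 0.00195) and 1.38 ± 0.33 for inguinal (adjusted p = 0.0055). The spleen call was lost without spleen library 2 (1.63). In brown adipose and inguinal fibroblasts Cxcl13 was 74.6 to 90.7% of the summed level per kilobase, beside low Ccl19 and Ccl21a.

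The remaining intraperitoneal fat depots had little Cxcl13 in fibroblasts. Epididymal fibroblasts held 17.6, 17.4 and 16.8 CPM and mesentery fibroblasts 13.6, 12.4 and 13.2 CPM. Pancreas fibroblasts held 45.0 and 47.3 CPM, and bone fibroblasts were lowest at 6.19, 3.20 and 3.87 CPM. Among the fibroblasts, all 9 tissues were called for Cxcl13, with bone at -5.48 ± 0.57 (edgeR adjusted p = 1.8e-08), mesentery at -3.73 ± 0.50 (adjusted p = 1.27e-05), epididymal at -3.28 ± 0.49 (adjusted p = 3.45e-05) and pancreas at -1.68 ± 0.52 (adjusted p = 0.0278). The pancreas call was lost without either of its libraries. Omentum fibroblasts exceeded those of mesentery by 7.91 ± 0.66 (edgeR adjusted p = 4.14e-09) and those of epididymal fat by 7.51 ± 0.65 (edgeR adjusted p = 6.5e-09), the 2 other visceral depots. In each of these pairs 3 of the 4 genes were called higher in omentum, beside 5.64% and 5.39% of all genes (8.05% and 8.04% in either direction). These were Cxcl13, Cxcl12 and Ccl19. The Ccl19 call against epididymal fibroblasts (2.22 ± 0.69, edgeR adjusted p = 0.0369) was lost without any 1 of the 6 libraries compared (2.13 to 2.39). Its call against mesentery was lost without mesentery library 2 or 3 (2.51 and 2.53).

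B cell and plasma cell transcripts were also highest in omentum fibroblasts. The sum of 6 of their markers was 1608, 944 and 1002 CPM in omentum fibroblast libraries 1, 2 and 3. Cxcl13 was 3414, 2330 and 3695 CPM in the same libraries. Library 2 was thus lowest in both, while library 3 was highest in Cxcl13 and library 1 in this sum. Ighm, the IgM heavy chain gene, was at 818 to 1356 CPM in omentum fibroblasts, 63.4 to 189 CPM in spleen, 30.9 to 114 CPM in lymph node and at most 119 CPM in any other library. Jchain, which encodes the chain that joins IgM into polymers, was at 113 to 238 CPM in omentum fibroblasts, 3.53 to 24.9 CPM in spleen and at most 15.2 CPM in any other library. The B cell genes Cd79a, Cd79b and Ms4a1 were far lower, with means of 2.33, 3.54 and 3.62 CPM in omentum fibroblasts, each the highest group mean of its gene. The leukocyte marker Ptprc, the CD45 gene used to exclude such cells, averaged 4.22 CPM there, which is the highest group mean of Ptprc. Markers of follicular dendritic cells, another known source of CXCL13, were summed without Cxcl13. The sum of the other 5 was 46.9 to 62.5 CPM in omentum fibroblasts, 16.6 to 34.1 CPM in lymph node, 34.2 to 45.1 CPM in spleen and 59.8 to 83.9 CPM in mesentery mesothelial cells. The part of B cell or follicular dendritic cell transcripts in the Cxcl13 result was not tested.

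The promoter of Cxcl13 is shown to place GGGAGATTT, the core of an element known to bind RelB and p52. The other promoters of the 4 genes did not hold it. This string was searched as an element already known, so its match in Cxcl13 gives a position and is not a test. The sequence covers 250 bases before the RefSeq start at chr5:95956689-95956938 (GRCm38.p6, plus strand), with the matches to GGGAGATTT and TATAAA in capitals.
Cxcl13 promoter: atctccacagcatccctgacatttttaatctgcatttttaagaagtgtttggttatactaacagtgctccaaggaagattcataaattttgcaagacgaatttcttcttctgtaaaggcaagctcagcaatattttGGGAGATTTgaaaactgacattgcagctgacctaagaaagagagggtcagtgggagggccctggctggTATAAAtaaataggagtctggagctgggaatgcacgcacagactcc
GGGAGATTT begins at position -114 and TATAAA at -46, counted from the start. On both strands of windows of the same length, GGGAGATTT occurs for 0.337% of 27025 genes and TATAAA for 14.3%. The NF-kB consensus, searched with its degenerate bases and present for 8.23% of genes, was not found for any of the 4. The Ccl21a promoter is shown beside it because Gm21541 (Ccl21d) carries nearly the same bases, with 1 difference and 99.6% identity, so that the 2 loci share their start region as well as their transcript. It covers chr4:42773992-42774241 (minus strand) and holds none of these motifs.
Ccl21a promoter: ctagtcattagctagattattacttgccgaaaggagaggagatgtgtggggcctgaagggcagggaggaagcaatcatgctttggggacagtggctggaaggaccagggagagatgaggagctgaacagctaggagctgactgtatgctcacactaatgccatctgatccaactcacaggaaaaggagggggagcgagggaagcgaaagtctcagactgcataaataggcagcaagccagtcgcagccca

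Cxcl12 was the only 1 of the 4 genes whose fibroblast libraries were all above the mesothelial libraries. It lies at chr6:117168535-117181367 on the plus strand (ENSMUSG00000061353). Lymph node fibroblasts held 9208, 8932 and 5342 CPM, omentum fibroblasts 1223, 783 and 1092 CPM and spleen 765 and 918 CPM, the last 2 overlapping. The other 6 fibroblast groups averaged from 420 CPM in inguinal to 167 CPM in bone, and no fibroblast library was under 108 CPM. The 9 mesothelial libraries ran from 1.75 to 11.98 CPM.

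Among fibroblasts, Cxcl12 was 4.41 ± 0.22 higher in lymph node than the mean of the other 8 groups (edgeR adjusted p = 5.22e-16) and 1.12 ± 0.26 higher in omentum (edgeR adjusted p = 0.002). The omentum value was 0.98, under the required 1, without omentum fibroblast library 1. Spleen was not called (0.79 ± 0.31, edgeR adjusted p = 0.183). Bone (-1.84 ± 0.33, edgeR adjusted p = 5.09e-05), mesentery (-1.29 ± 0.31, adjusted p = 0.00965), pancreas (-1.22 ± 0.38, adjusted p = 0.027) and brown adipose (-1.06 ± 0.31, adjusted p = 0.0232) were called lower. The brown adipose and pancreas calls were each lost without any 1 of that tissue's libraries, and the mesentery call without mesentery library 2 or 3. Lymph node exceeded spleen by 3.22 ± 0.48 (edgeR adjusted p = 1.02e-05) and omentum by 2.92 ± 0.40 (edgeR adjusted p = 1.83e-06). Bone fibroblasts, from the organ where CXCL12 is best known, were thus at the low end of the fibroblast groups in this sort.

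The sum of markers of marrow reticular cells, the main known source of Cxcl12 in bone, was also highest in lymph node. Without Cxcl12 this sum was 1227 to 2290 CPM in lymph node and 104 to 112 CPM in bone. Most of it in lymph node was leptin receptor (Lepr), which averaged 1459 CPM there and 55.3 CPM in bone. Markers of mural cells, the contractile cells of vessel walls, also stood high in lymph node at 866 to 1006 CPM, against at most 239 CPM in any other fibroblast library. The part of either group of transcripts in the lymph node values was not tested.

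Myeloid and dendritic cell transcripts were also high in lymph node and omentum fibroblasts, the groups in which the 4 genes peaked. The sum of 6 of their markers was 382 to 945 CPM in lymph node fibroblasts and 457 to 633 CPM in omentum fibroblasts. It was at most 101 CPM in the other fibroblast libraries, except 1 pancreas library at 522 CPM, and reached 1997 CPM in mesentery mesothelial cells. Most of it in lymph node was Cd74, at 566 CPM on average, and H2-Aa, at 39.6 CPM, both genes of antigen presentation by MHC class II. The macrophage genes Lyz2 and Adgre1 averaged 2.67 and 0.123 CPM there, and 81.5 and 4.15 CPM in omentum fibroblasts. Itgax, the CD11c gene, averaged 0.0474 CPM in lymph node and 0.120 CPM in omentum fibroblasts, and both Itgax and Adgre1 were at 0 in at least 1 lymph node library. The part of these transcripts in the Ccl21a, Ccl19, Cxcl13 and Cxcl12 values was not tested.

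**Figure D4:**
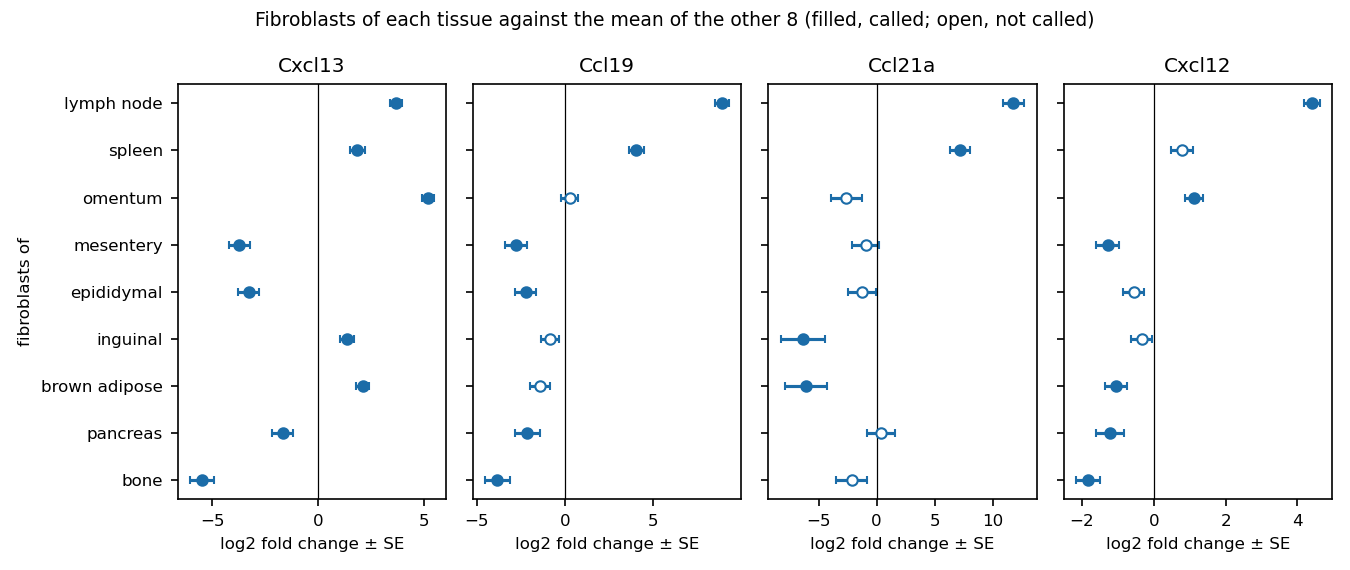
Points give the log2 fold change of fibroblasts of a tissue against the other 8 tissues' mean, with bars of 1 SE; filled points were called. Lymph node is called for all 4 genes, spleen for all but Cxcl12, and Cxcl13 is called in all 9 tissues.

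Read by tissue, spleen had 3 of the 4 genes higher, where 3.47% of all genes tested were called higher and 3.88% in either direction. Bone had 3 lower, where 6.65% of genes were called lower and 19.5% in either direction. Mesentery had 3 lower (1.31% of genes lower, 3.5% in either direction), pancreas 3 lower (2.31% and 11.0%) and epididymal fat 2 lower (1.93% and 4.43%). Inguinal fat had Cxcl13 higher (3.35% of genes) and Ccl21a lower (2.96%), with 6.3% of genes called in either direction. Brown adipose tissue had Cxcl13 higher (3.66% of genes) with Ccl21a and Cxcl12 lower (2.75%), with 6.41% in either direction. Across all 9 tissues at once the 4 genes were all called, as were 44.0% of genes tested. Between lymph node and spleen, Ccl19 and Cxcl12 were called higher in lymph node (6.25% of genes, 13.4% in either direction). Between lymph node and omentum, all 4 were called, 3 higher in lymph node (8.56% of genes) and Cxcl13 lower (9.17%), with 17.7% of genes in either direction. The tissue comparisons share libraries, and each value is its own contrast from a single fit. Lymph node also exceeded inguinal fibroblasts for all 4 genes (8.68% of genes higher, 16.5% in either direction), by 16.17 ± 2.51 for Ccl21a (edgeR adjusted p = 2.62e-05) and by 2.03 ± 0.50 for Cxcl13 (edgeR adjusted p = 0.00388). The size of the Ccl21a value rests on 28, 2 and 5 reads in the inguinal libraries. Their mean was 0.340 CPM, or 1.05 CPM with the copies of Ccl21a summed.

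Mesothelial cells differed from fibroblasts of the same depot by gene. Cxcl12 was lower in mesothelial cells of all 3 depots, at -6.83 ± 0.48 on the log2 scale in omentum (edgeR adjusted p = 7.86e-12), -5.74 ± 0.47 in mesentery (edgeR adjusted p = 6.59e-11) and -6.19 ± 0.47 in epididymal fat (edgeR adjusted p = 1.84e-11). The mesothelial libraries held 11.98, 5.81 and 9.61 CPM in omentum, 9.12, 1.99 and 1.75 CPM in mesentery and 6.63, 3.798 and 4.65 CPM in epididymal fat. The range of the 3 effects, 1.09, was not called as a difference between depots (edgeR adjusted p = 0.35). Over the mean of the 3 depots 3 of the 4 genes were called lower in mesothelial cells, where 9.08% of all genes were called lower and 21.4% in either direction.

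Cxcl13 depended on the depot. In the omentum, mesothelial libraries held 83.5, 65.0 and 73.8 CPM, against 2330 CPM or more in the fibroblasts, a log2 difference of -5.41 ± 0.59 (edgeR adjusted p = 7.92e-08). In mesentery the mesothelial libraries held 44.0, 14.1 and 12.3 CPM, beside 12.4 to 13.6 CPM in fibroblasts (0.85 ± 0.51, edgeR adjusted p = 0.274). In epididymal fat they held 36.9, 6.84 and 5.33 CPM, beside 16.8 to 17.6 CPM (-0.08 ± 0.50, edgeR adjusted p = 0.928). Without the mesothelial library at 36.9 CPM the epididymal difference was -1.66 and was called (edgeR adjusted p = 0.00206). The mesothelial effect differed between depots with a range of 6.26 on the log2 scale (edgeR adjusted p = 3.21e-06), a comparison in which 10.9% of all genes and only Cxcl13 of the 4 were called.

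The omentum also led among the mesothelial cells for Cxcl13. All 3 omentum libraries were above the 6 of the other depots, and the range across depots was 2.18 (edgeR adjusted p = 0.00575, with 12.3% of genes called). Omentum exceeded epididymal mesothelial cells by 2.18 ± 0.52 (edgeR adjusted p = 0.00611, 3.55% of genes called higher and 10.4% in either direction) and mesentery mesothelial cells by 1.65 ± 0.51 (edgeR adjusted p = 0.0473, 2.36% of genes called higher and 5.15% in either direction). The last call was lost in 27 of 34 fits that each left out a library. With only the 9 mesothelial libraries in the fit, the range across depots was not called (adjusted p = 0.176). Between mesentery and epididymal mesothelial cells none of the 4 genes was called by edgeR, where 4.18% of genes were called. Of the 4, only Ccl19 had an unadjusted edgeR p under 0.05 there (2.87 ± 0.91, adjusted p = 0.0651), and it was the only 1 called by DESeq2 (adjusted p = 0.00421). Over the 34 fits that each left out a library, this Ccl19 difference ran -0.35 to 3.59. It changed direction in 1 fit and was called in 2.

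Ccl19 was lower in mesothelial cells of the omentum, at -3.78 ± 0.75 on the log2 scale (edgeR adjusted p = 0.000475), and of epididymal fat, at -3.95 ± 0.89 (edgeR adjusted p = 0.00136). In these depots 3 and 2 of the 4 genes were called, all lower, beside 8.79% and 8.16% of all genes called lower (16.9% and 24.7% in either direction). In mesentery the difference was -0.61 ± 0.71 (edgeR adjusted p = 0.634), and Cxcl12 was the only 1 of the 4 genes called there, beside 7.53% of all genes called lower (18.3% in either direction). The mesentery mesothelial libraries held 10.6, 0.0949 and 0.750 CPM of Ccl19, the first far above the others. Without that library the difference was -3.93 and was called (edgeR adjusted p = 6.17e-05). The same library was also the highest of its group in Cxcl13, Ccl21a, Cxcl12 and the lymphatic endothelial markers. With the copies of Ccl19 added, the mesentery difference was -2.37 with all libraries (edgeR adjusted p = 0.0094).

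Ccl21a was not called in mesothelial cells against fibroblasts of any depot. The differences were 1.10 ± 1.49 in omentum, 2.10 ± 1.42 in mesentery and 1.01 ± 1.41 in epididymal fat (edgeR adjusted p = 0.627, 0.351 and 0.623), with errors too wide to tell the groups apart. Each turned negative without the mesothelial library highest in Ccl21a: to -4.50 without omentum library 3, -0.46 without mesentery library 1 and -0.70 without epididymal library 3.

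**Figure D5:**
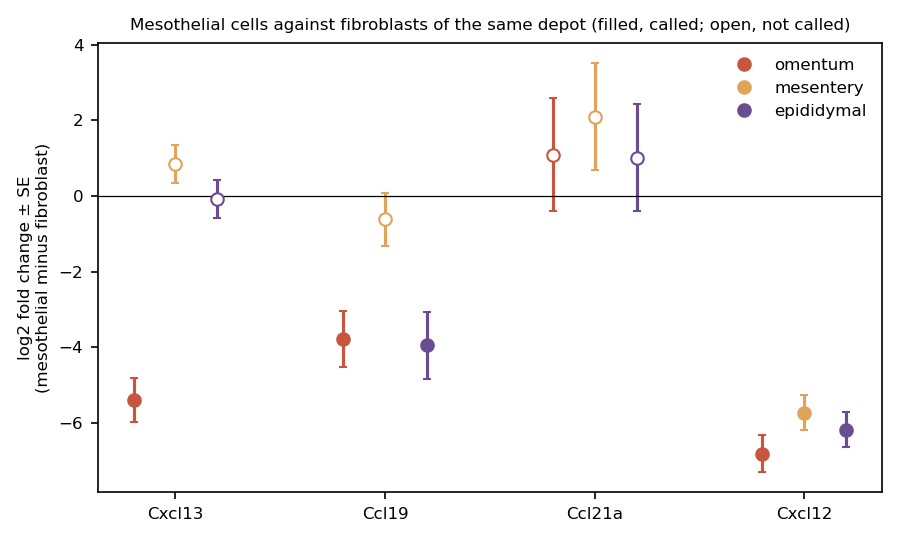
Points give the log2 fold change of mesothelial cells against fibroblasts of the same depot, with bars of 1 SE; filled points were called. Cxcl12 lies between -6.83 and -5.74 in all 3 depots, while Cxcl13 is at -5.41 in omentum and near 0 in the other 2.

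Transcripts of the receptors for the 4 chemokines were rare in these stromal libraries. Cxcr5 averaged at most 0.718 CPM, in omentum fibroblasts, Ccr7 at most 1.70 CPM, in omentum mesothelial cells, and Cxcr4 at most 2.97 CPM, in lymph node fibroblasts. In omentum fibroblasts Cxcr5 and Ccr7 were called higher than the mean of the other 8 fibroblast groups, by 3.79 ± 0.81 and 3.91 ± 0.86 (edgeR adjusted p = 0.000446 and 0.00112). Ccr7 and Cxcr4 were called higher in lymph node fibroblasts than the mean of the other 8 fibroblast groups, by 3.82 ± 0.91 and 3.42 ± 0.27 (edgeR adjusted p = 0.0015 and 6.64e-14). Beside these calls, 7.64% of all genes were higher in omentum and 9.32% in lymph node. DESeq2 called 1 of the 3 receptors higher in omentum and 2 in lymph node. By edgeR 1 was also higher in spleen, pancreas and bone each, beside 3.88, 11.0 and 19.5% of genes in either direction. In mesentery and brown adipose tissue 1 each was lower, beside 3.5 and 6.41%.

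The atypical receptors, which bind chemokines without calling cells in, were each lowest in lymph node among the 9 fibroblast groups. Their means there were 2.46 CPM for Ackr1, 8.10 for Ackr2, 89.5 for Ackr3 and 1.42 for Ackr4. All 4 were called lower in lymph node fibroblasts than in the other 8 groups, where 7.13% of all genes were called lower. Ackr4, which binds CCL19 and CCL21, had a log2 fold change of -5.10 ± 0.28 (edgeR adjusted p = 2.56e-16). It was 147 CPM in spleen, where it was called higher by 2.39 ± 0.17 (edgeR adjusted p = 4.73e-12). Ackr3, which binds CXCL12, averaged 1833 CPM in brown adipose fibroblasts, and its lymph node change was -3.25 ± 0.27 (edgeR adjusted p = 1.25e-11). All 4 were also called lower in mesothelial cells than in fibroblasts over the mean of the 3 depots, beside 9.08% of all genes called lower and 21.4% in either direction.

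Genes of the lymphotoxin and NF-kB pathway were counted from a list of 17, of which 16 were tested. In lymph node fibroblasts 9 were called higher by edgeR and 8 by DESeq2, beside 9.32% of all genes higher, with a median log2 fold change of 1.34 against -0.04 over all genes. Neither tool called any lower, and none had a lower value at an unadjusted p under 0.05. Map3k14, the kinase NIK, averaged 88.1 CPM there and changed by 2.04 ± 0.16 (edgeR adjusted p = 2.8e-12), and Relb by 1.59 ± 0.18 (edgeR adjusted p = 9.58e-09). Tnfsf11, the cytokine RANKL, changed by 7.85 ± 0.38 against the mean effect of the other 8 groups (edgeR adjusted p = 5.59e-19). It averaged 7.86 CPM in lymph node, and the highest of the other groups was at 1.69 CPM. Ltb, a subunit of the lymphotoxin that binds this receptor, changed by 5.33 ± 0.48 (edgeR adjusted p = 3.63e-12). Birc2 and Traf2, parts of the complex that holds NIK in check, changed by 2.38 ± 0.12 and 2.13 ± 0.14 (edgeR adjusted p = 2.74e-17 and 1.89e-14). The lymphotoxin receptor itself, Ltbr, was at 0.07 ± 0.18 (edgeR adjusted p = 0.866).

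Fewer genes of this list were called in omentum and spleen fibroblasts than in lymph node, as were fewer of all genes tested. In omentum 3 of 16 were called higher, beside 7.64% of all genes, namely Relb (1.01 ± 0.19), Tnfrsf11a (1.09 ± 0.31) and Tnfsf14 (3.50 ± 0.74), the last at 0.710 CPM. DESeq2 called 4 higher, none was called lower by either tool, and none was lower at an unadjusted p under 0.05. In spleen none of 16 was called in either direction by edgeR or DESeq2, beside 3.88% of all genes by edgeR, while 3 were higher and 0 lower at an unadjusted p under 0.05 in edgeR. Their median there was -0.17, beside 0.05 over all genes. Relb averaged 16.5 CPM in lymph node, 11.6 CPM in omentum fibroblasts and 5.84 CPM in spleen.

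Other genes of lymphoid stroma set lymph node, spleen and omentum apart in different ways. Of 18 tested, 13 were called higher and 1 lower in lymph node, beside 9.32% and 7.13% of all genes. Among the 13 were Bst1 (8.19 ± 0.24), Lepr (7.28 ± 0.15), Grem1 (6.69 ± 0.20), Enpp2 (4.25 ± 0.14), Tnfsf13b, the B cell factor BAFF (3.45 ± 0.11), and Il7, the T cell survival cytokine (5.09 ± 0.19). In spleen 7 were higher, beside 3.47% of all genes, and none lower by edgeR (6 and 0 by DESeq2, none lower at an unadjusted p under 0.05), led by Madcam1 (6.26 ± 0.38), an adhesion molecule for lymphocytes, with the spleen transcription factors Tlx1 (5.69 ± 0.82) and Nkx2-3 (5.40 ± 0.60). In omentum 9 were higher, beside 7.64% of all genes, and none lower by edgeR (8 and 0 by DESeq2, 1 lower at an unadjusted p under 0.05), among them Enpp2, which makes the lipid signal lysophosphatidic acid (3.42 ± 0.14), and Tnfsf13, the B cell factor APRIL (3.35 ± 0.22). Medians of this list were 2.89 in lymph node, 0.81 in spleen and 0.99 in omentum, beside medians of -0.04, 0.05 and -0.0007 over all genes.

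Other chemokines made without inflammation were counted from a list of 8, of which 7 were tested. In lymph node fibroblasts 2 were called higher, Cxcl16 (3.52 ± 0.12, edgeR adjusted p = 3.78e-22), a membrane-bound ligand of CXCR6, and Cx3cl1 (3.23 ± 0.37, edgeR adjusted p = 2.99e-08), the ligand of CX3CR1. These 2 stand beside 9.32% of all genes called higher. Cxcl14 was the only 1 called lower there (-2.92 ± 0.46, edgeR adjusted p = 3.42e-06), and also in omentum (edgeR adjusted p = 0.000333) and spleen (-1.54 ± 0.47, edgeR adjusted p = 0.0472). In omentum fibroblasts Ccl11, the eosinophil chemokine eotaxin, was the only 1 called higher (1.19 ± 0.28, edgeR adjusted p = 0.00325), beside 7.64% of all genes. Of all genes, 7.13% were called lower in lymph node, and 10% in omentum and 3.88% in spleen were called in either direction.

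By the pattern of group means, each gene had different nearest genes over the 12 groups. On mean log CPM, C4b, a complement gene, was most like Cxcl13 (Pearson r = 0.889), followed by Phf11b (0.870) and Icosl (0.860), the ligand of the T cell costimulator ICOS. Mfge8, a follicular dendritic cell product known from spleen, was most like Ccl19 (0.963), Dsc3 most like Ccl21a (0.935) and Gab3 most like Cxcl12 (0.975). Among the 4 genes themselves the closest were Ccl19 and Cxcl12 (0.858), followed by Ccl19 and Ccl21a (0.753), and the least alike were Cxcl13 and Ccl21a (0.271). These values describe 12 means that share libraries and scaling, and lymph node weighs on all of them.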

How the data were processed

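PolyA RNA of sorted stromal cells was sequenced. The authors deposited raw counts per gene. Per the file headers these are uniquely aligning reads of each gene model, while Salmon and GRCm38 are named per the submitters' processing notes. How reads shared by near-identical genes were handled, the Salmon version and the annotation release are not given in the sources used here. Symbols, lengths and positions came from GENCODE M21 (51633 of 51826 identifiers matched) and promoters from RefSeq (GRCm38.p6); copies were found with BLAST 2.17.0.

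Libraries were grouped by their labels. Counts were filtered with filterByExpr (minimum count 10), scaled by TMM and fitted once over 34 libraries with edgeR 4.0.16 (quasi-likelihood, robust; R 4.3.3, limma 3.58.1), with Benjamini-Hochberg adjustment over 25705 genes for each of 24 contrasts. A comparison over several groups has the span from its lowest to its highest group effect as its fold change. The script was tested on simulated data. Depth was 28651435 to 42335589 reads, and replicate libraries differed by more than counting error (chi-square per degree of freedom 24.8 to 359).

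The members and gene lists were chosen with earlier results of these data known. The text names the members in every group, their copies at 95% identity or more, and from each list up to 6 called genes with the smallest adjusted p plus genes whose role is described. Alternatives were other size factors, other filters, only the groups compared, the replicate block, DESeq2 1.42.0, copies summed, and each library left out.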

Additional observations from a re-analysis of the deposited data

Results flagged for a closer look

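Cxcl13 differed between depots in its mesothelial effect, by the test of that difference itself. The effects of mesothelial cells against fibroblasts were -5.41 ± 0.59 in omentum, 0.85 ± 0.51 in mesentery and -0.08 ± 0.50 in epididymal fat (log2 scale, SE). Their range was 6.26 (edgeR adjusted p = 3.21e-06). All 3 omentum mesothelial libraries lay below all 3 omentum fibroblast libraries, while in the other 2 depots the mesothelial and fibroblast libraries overlapped.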

How the results depend on the processing

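Of the 96 results for the 4 genes, none changed its call with replicate number as a replicate block or with the scaling of DESeq2 (RLE) in place of TMM. Mesothelial and fibroblast libraries of the same depot and number had correlations of -0.249 to 0.231 in their deviations from the group means. Not every library correlated best with its own number. In epididymal fat libraries 2 and 3 did, at 0.231 and 0.226. These correlations cannot settle whether libraries of the same number share animals. With the block the lymph node change of Cxcl13 was 3.64. Pancreas and spleen had 2 libraries, so leaving 1 out leaves a lone library that is assumed to vary like the other groups. Unless a value says otherwise, those below are log2 fold changes, and the cause of each change was not tested.

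With no filter on low counts, the shared estimate of spread took infinite prior degrees of freedom (9.67 with the filter), standard errors shrank, and calls were added. For Ccl21a, the added calls against the other 8 tissues were bone at -2.20, epididymal fat at -1.19 and omentum at -2.50. In the same fit Ccl21a was called in mesothelial cells against fibroblasts of omentum (1.03), mesentery (2.09) and the mean of the depots (1.36), with a range of 1.13 between depots. It was called among mesothelial cells across depots (2.49), for omentum minus mesentery (-2.49), omentum minus epididymal (-1.11) and mesentery minus epididymal (1.38). Among fibroblast pairs it was called for omentum minus mesentery (-1.42), omentum minus epididymal (-1.17) and lymph node minus spleen (4.06). Ccl19 was called in brown adipose tissue (-1.43), in the mesothelial effect between depots (3.41), and among mesothelial cells across depots (2.91), for mesentery minus epididymal (2.91) and omentum minus epididymal (2.44). Cxcl12 was called in the effect between depots (1.16) and among mesothelial cells across depots and for omentum minus mesentery (1.04 in both). Cxcl13 was called for lymph node minus spleen (1.59). The genes called between mesentery and epididymal mesothelial cells numbered 1904 in place of 1075.

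With a summed count above 10 as the filter, also chosen after seeing the data, 4 calls were lost, namely Cxcl13 for omentum minus mesentery mesothelial cells (1.65, edgeR adjusted p = 0.0795), Cxcl13 for lymph node minus omentum (-1.44), Ccl19 in pancreas (-2.18) and Ccl19 for omentum minus epididymal fibroblasts (2.24). With only the groups compared in the fit, Cxcl13 lost its calls among mesothelial cells across depots (2.16) and for omentum minus mesentery (1.65, edgeR adjusted p = 0.0515). That fit added calls for lymph node minus spleen for Cxcl13 (1.59) and Ccl21a (4.05), and for Ccl19 in brown adipose tissue (-1.44) and for omentum minus epididymal mesothelial cells (2.50). The genes called in that last comparison numbered 1612 in place of 2668. DESeq2 added 7 calls and lost none. It called Ccl19 in the mesothelial effect between depots (3.33), among mesothelial cells across depots and for mesentery minus epididymal (2.82 in both), and for omentum minus epididymal (2.46). It also called Ccl21a in omentum fibroblasts (-2.51) and for lymph node minus spleen (4.08), and Cxcl13 for lymph node minus spleen (1.61). Summing the copies of Ccl19 with it, chosen after seeing the data, gave a call in mesentery mesothelial cells (-2.37) and lost that in epididymal fibroblasts (-1.67).

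Leaving out each of the 34 libraries in turn gave the following ranges where a call or direction changed. Cxcl13 ran -1.78 to -1.04 for lymph node minus omentum, 1.16 to 1.91 for lymph node minus spleen, -1.72 to -1.63 in pancreas and 1.63 to 2.05 in spleen. Mesothelial against fibroblast differences of Cxcl13 ran -0.0926 to 1.16 in mesentery and -1.66 to 0.35 in epididymal fat, and those among mesothelial cells 1.35 to 2.52 for omentum minus mesentery and -0.33 to 2.002 for mesentery minus epididymal. Ccl19 in fibroblasts ran -2.35 to -1.93 in pancreas, -2.35 to -2.15 in epididymal fat, -3.17 to -2.58 in mesentery and -1.92 to -1.20 in brown adipose tissue. For omentum minus mesentery fibroblasts Ccl19 ran 2.51 to 3.11, and for omentum minus epididymal 2.13 to 2.39. In mesothelial cells Ccl19 ran -3.93 to -0.0692 against mesentery fibroblasts, 0.19 to 4.09 between depots and 2.49 to 3.59 across depots. Its pairs ran -1.21 to 2.80 for omentum minus mesentery, 1.66 to 3.16 for omentum minus epididymal and -0.35 to 3.59 for mesentery minus epididymal.

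In fibroblasts Ccl21a ran -3.53 to 1.35 in pancreas, -6.44 to -5.59 in brown adipose tissue, -8.04 to -5.89 in inguinal fat and -1.98 to 0.75 for omentum minus mesentery. Mesothelial against fibroblast differences of Ccl21a ran -4.50 to 1.67 in omentum, -0.46 to 4.35 in mesentery, -0.70 to 2.16 in epididymal fat and -0.46 to 2.15 over their mean. Among mesothelial cells it ran -8.11 to 0.0308 for omentum minus mesentery, -6.73 to 0.58 for omentum minus epididymal and -1.14 to 3.09 for mesentery minus epididymal. Cxcl12 ran 0.98 to 1.39 in omentum, -1.10 to -1.02 in brown adipose tissue, -1.51 to -1.06 in mesentery and -1.41 to -1.06 in pancreas. Among mesothelial cells Cxcl12 was called without mesentery library 1, and ran 0.81 to 2.30 across depots, 0.69 to 2.30 for omentum minus mesentery and -1.44 to 0.17 for mesentery minus epididymal. Counts of genes called ran 1767 to 3418 (all libraries 2812) for the mesothelial effect between depots, 1312 to 2951 (all libraries 2668) for omentum minus epididymal mesothelial cells and 845 to 1447 (all libraries 1324) for omentum minus mesentery. They ran 1862 to 3063 (all libraries 2817) in pancreas and 476 to 1068 (all libraries 998) in spleen. The libraries that moved these counts by over 1.5 times were omentum mesothelial library 2 and omentum fibroblast library 2 (between depots), omentum mesothelial library 2 (both pairs), mesentery mesothelial library 1 (omentum minus mesentery, 868), pancreas library 1 and either spleen library. With 28651435 to 42335589 reads per library, depth limits only the lowest values, such as 0.0949 CPM of Ccl19.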
